A study of Rattus norvegicus with 6 samples.

Results

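The NMDA receptor subunit genes Grin1, Grin2a, Grin2b, Grin2c, Grin2d, Grin3a and Grin3b were taken from the gene table by exact match of the gene name. They are 7 of 30957 listed genes, and all 7 passed the filter on low counts that left 14908 genes for testing. The libraries came from the ipsilateral lumbar enlargement of adult female Wistar rats on day 14. BCP rats, the model of bone cancer pain, had received living Walker 256 cells, a rat mammary carcinoma line, in the marrow cavity of the left tibia, and sham-operated rats had received the same cells killed by heat. Each group had 3 libraries of total RNA depleted of ribosomal RNA, and both groups shared the surgery, the injected cell line, the strain and the day. Naive rats were not analysed here, and the labels do not say whether a library was made from 1 animal or from a pool, so p-values measure the spread between these libraries.

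NMDA receptors are glutamate-gated cation channels that pass calcium and are blocked by magnesium at the resting membrane potential. Each channel is a tetramer that needs GluN1, the product of Grin1, which binds glycine or D-serine, together with glutamate-binding GluN2 subunits (Grin2a to Grin2d) or glycine-binding GluN3 subunits (Grin3a and Grin3b). In the dorsal horn of the spinal cord these receptors are known for their part in central sensitization, the lasting gain in responses of neurons to input from primary afferents.

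All 7 subunit genes had lower mean values in BCP rats than in sham-operated rats. The differences were small, from 12.8% to 24.6% lower by the fitted fold change. After adjustment over all 14908 genes, 6 of the 7 fell (edgeR, adjusted p under 0.05) and Grin3a did not pass the threshold, while 12.1% of all tested genes were called lower and 15.8% higher. None of the 7 passed the 2-fold threshold of the study in edgeR or DESeq2, a threshold that 0.107% of tested genes passed downward and 6.35% upward. Genes that mark neurons had a median log2 fold change of −0.19, beside −0.24 for the subunits. No subunit was called when the libraries were scaled to those markers, a scaling that moved the median of all tested genes to 0.18.

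The regions before the annotated starts are shown as a description, and their part in the values of the subunit genes was not tested. RefSeq promoters of the GRCr8 assembly were found for 4 of the 7 genes, all on the minus strand, and the 100 bases before each start read as follows, with letters that match a searched motif in capitals.
Grin1, chr3:28528755-28528854: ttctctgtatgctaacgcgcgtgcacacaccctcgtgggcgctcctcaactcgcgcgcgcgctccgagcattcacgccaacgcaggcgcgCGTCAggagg
Grin2c, chr10:101005139-101005238: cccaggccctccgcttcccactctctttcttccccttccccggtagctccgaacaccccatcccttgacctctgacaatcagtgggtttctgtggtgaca
Grin2d, chr1:105481237-105481336: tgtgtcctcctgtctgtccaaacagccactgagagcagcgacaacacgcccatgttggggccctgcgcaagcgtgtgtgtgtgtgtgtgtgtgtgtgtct
Grin3a, chr5:69001559-69001658: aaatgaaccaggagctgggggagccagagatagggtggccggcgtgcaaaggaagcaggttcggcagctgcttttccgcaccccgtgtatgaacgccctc
Just after the Grin1 start, with its first capital at position 26 counted from 1 at the start, lies a match to the box bound by Egr factors, shown in capitals with its flanks. Only that match is in capitals here. The lowercase flanks also hold CGTCA from position 17 and the last base of GGGCGG, which starts at position 30.
Grin1, 29 bases: gcgtcaggaaGCGGGGGCGgtgggagggg
Motifs were searched on both strands of the whole promoter windows, which run from 250 bases before to 50 bases after each start. The core of the CRE, TGACG, was found in 21.2% of 33469 RefSeq promoters, the GC box GGGCGG in 33.1% and the Egr box GCGGGGGCG in 2.73%. Of the 4 subunit promoters, that of Grin1 held all 3 of these, with the Egr box and the GC box overlapping, and those of Grin2c, Grin2d and Grin3a held none. The sequence TTCAGCACC, part of the element bound by the repressor REST and present in 0.356% of promoters, was found in none of the 4, nor was the TATA box TATAAA, present in 14.2%. A match describes the letters of the window and says nothing about binding in these samples.

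Levels between genes were compared as deposited FPKM, which is scaled to gene length. Grin1 was the most abundant subunit gene, with 49.5 ± 1.79 FPKM in sham-operated rats and 43.7 ± 1.42 in BCP rats (mean ± SD, n = 3 in each group here and below). Grin2a followed with 22.3 ± 1.62 and 19.9 ± 0.512 FPKM. Grin1 made up 40.8% ± 0.483 of the summed FPKM of the 7 genes in sham-operated rats and 41.1% ± 0.318 in BCP rats. Grin2b had 15.2 ± 1.47 and 13.2 ± 0.647 FPKM, and Grin2c had 14.35 ± 0.854 and 12.3 ± 0.366 FPKM. These neighbours overlapped among sham libraries, and in BCP rats the highest library of Grin2c, at 12.55 FPKM, lay just below the lowest of Grin2b, at 12.6 FPKM. Grin3a came next with 11.35 ± 0.521 and 10.2 ± 0.441 FPKM. The lowest were Grin2d, with 4.92 ± 0.288 and 4.05 ± 0.314 FPKM, and Grin3b, with 3.87 ± 0.498 and 2.997 ± 0.232 FPKM. Libraries of Grin2d and Grin3b did not overlap within a group, although the highest sham value of Grin3b, 4.34 FPKM, lay above the lowest BCP value of Grin2d, 3.72 FPKM.

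**Figure D1:**
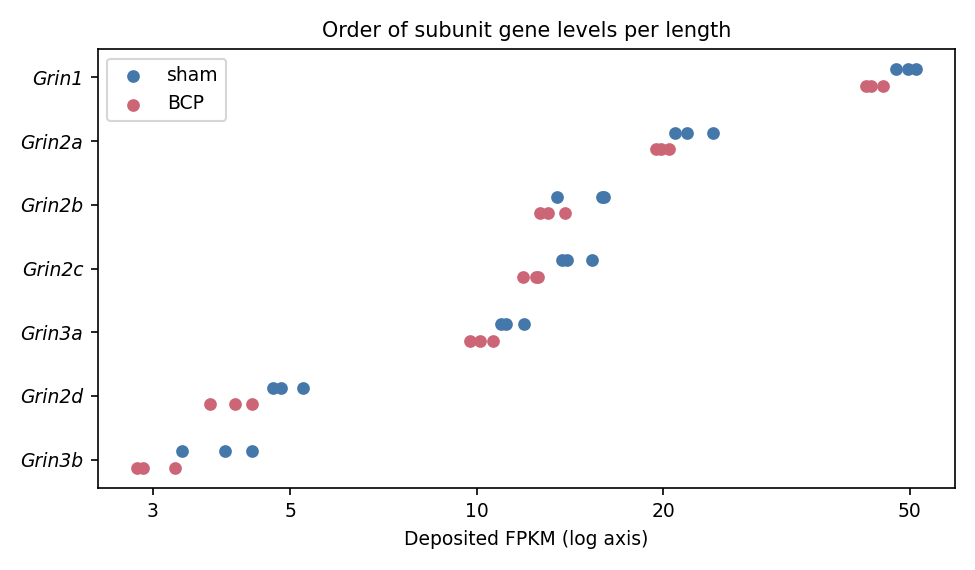
Deposited FPKM (log axis) of the 7 NMDA receptor subunit genes, ordered from top to bottom by level, with 1 point per library (3 sham, 3 BCP). Grin1 lies between 42.45 and 51.15 FPKM and Grin3b between 2.83 and 4.34 FPKM, and Grin2b and Grin2c overlap among sham libraries.

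For the test, counts were scaled to CPM with TMM factors, which set all libraries to one size, and on this scale a gene's own change can be read but not its level against another gene. Grin1 (ENSRNOG00000011726; Rnor_6.0 chromosome 3, 2506896 to 2534663), which encodes the obligatory subunit, had 309.8, 321 and 331 CPM in sham libraries 1, 2 and 3 and 288, 267 and 272 CPM in BCP libraries 1, 2 and 3. All BCP libraries lay below all sham libraries, an ordering that 19.8% of all tested genes showed, with 21.7% in the reverse order. The mean fell from 321 ± 10.7 to 275 ± 11 CPM. The log2 fold change was −0.22 (SE 0.046, adjusted p = 0.00103), a fitted fall of 14.2%. Grin1 remained called when any 1 of the 6 libraries was left out, with adjusted p between 0.000746 and 0.0106.

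Grin2a (ENSRNOG00000033942; chromosome 10, 5930298 to 6119990) encodes GluN2A, which gives channels with fast deactivation. It had 90.7, 94.15 and 104 CPM (sham libraries 1 to 3) and 86.8, 83.2 and 81.3 CPM (BCP libraries 1 to 3). Sham library 3 was the highest, and the groups did not overlap. The fitted level was 12.99% lower, with a log2 fold change of −0.20 (SE 0.060, adjusted p = 0.0157). The call was lost without sham library 3 (adjusted p = 0.124), without BCP library 2 (0.0563) or without BCP library 3 (0.0717), and with scaling by library size alone (0.0529).

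Grin2b (ENSRNOG00000008766; chromosome 4, 169560387 to 169999873) encodes GluN2B, whose channels deactivate slowly and which binds CaMKII. Its values were 72.3, 85.6 and 85.1 CPM (sham libraries 1 to 3) and 68.3, 65.4 and 71.8 CPM (BCP libraries 1 to 3). Sham library 1 lay close to BCP library 3, and on the FPKM scale, which has no TMM factor, their order turned, at 13.5 FPKM in sham library 1 and 13.9 FPKM in BCP library 3. With TMM scaling the fitted level was 15.5% lower, with a log2 fold change of −0.24 (SE 0.069, adjusted p = 0.0112). The call was lost without sham library 2 (adjusted p = 0.0682), sham library 3 (0.0618) or BCP library 2 (0.0683).

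Grin2c (ENSRNOG00000003280; chromosome 10, 103798291 to 103816287) and Grin2d (ENSRNOG00000021063; chromosome 1, 101820461 to 101856881) encode the GluN2 subunits that give weaker magnesium block. Grin2c had 65.4, 72.4 and 66.15 CPM (sham libraries 1 to 3) and 58.3, 54.5 and 57.1 CPM (BCP libraries 1 to 3), without overlap. It fell by 16.7% (log2 fold change −0.26, SE 0.065, adjusted p = 0.0043) and remained called whichever library was left out. Grin2d had 34.2, 37.9 and 35 CPM (sham libraries 1 to 3) and 30.95, 26.2 and 28.55 CPM (BCP libraries 1 to 3), also without overlap, and BCP library 2 was the lowest. Its fitted level was 20.15% lower (log2 fold change −0.32, SE 0.087, adjusted p = 0.00785). The call was lost without BCP library 2 (adjusted p = 0.0563).

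Grin3a (ENSRNOG00000005723; chromosome 5, 64928620 to 65073012) encodes GluN3A, which lowers calcium permeability when it joins the channel. It had 36.6, 35.6 and 38.9 CPM (sham libraries 1 to 3) and 34.1, 30.9 and 32.0 CPM (BCP libraries 1 to 3). The groups did not overlap, yet the log2 fold change of −0.20 (SE 0.080) did not pass the threshold (edgeR adjusted p = 0.0742). It passed with upper-quartile normalization (adjusted p = 0.0341) and in no fit that left out a library.

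Grin3b (ENSRNOG00000012562; chromosome 7, 12764993 to 12771309) encodes GluN3B, which is known from motor neurons. Its 166, 199 and 159 sham counts and 108, 142 and 116 BCP counts were the fewest of the 7 genes. These gave 12.7, 13.9 and 10.7 CPM against 9.13, 10.15 and 8.78 CPM. The log2 fold change of −0.41 was the lowest of the 7 and had the widest error (SE 0.14, adjusted p = 0.0347). The call was lost in DESeq2 (adjusted p = 0.103), with scaling by library size alone (0.0612), and without sham library 1 (0.084), sham library 2 (0.166), BCP library 1 (0.0788) or BCP library 3 (0.118). The whole span of Grin3b lies inside that of Palm, which encodes the membrane protein paralemmin and was also lower (log2 fold change −0.31, adjusted p = 0.000515), and 83 bases of it overlap Tmem259. The use of strand in counting is not given in the sources used here, so reads of Grin3b and Palm may not be told apart and the values of Grin3b are uncertain. Among the other subunits, Grin1 overlaps Lrrc26, which had a mean of 0.333 counts in sham libraries and 1.0 in BCP libraries, and Grin3a overlaps Ppp3r2, with 11.3 and 12.7 counts.

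**Figure D2:**
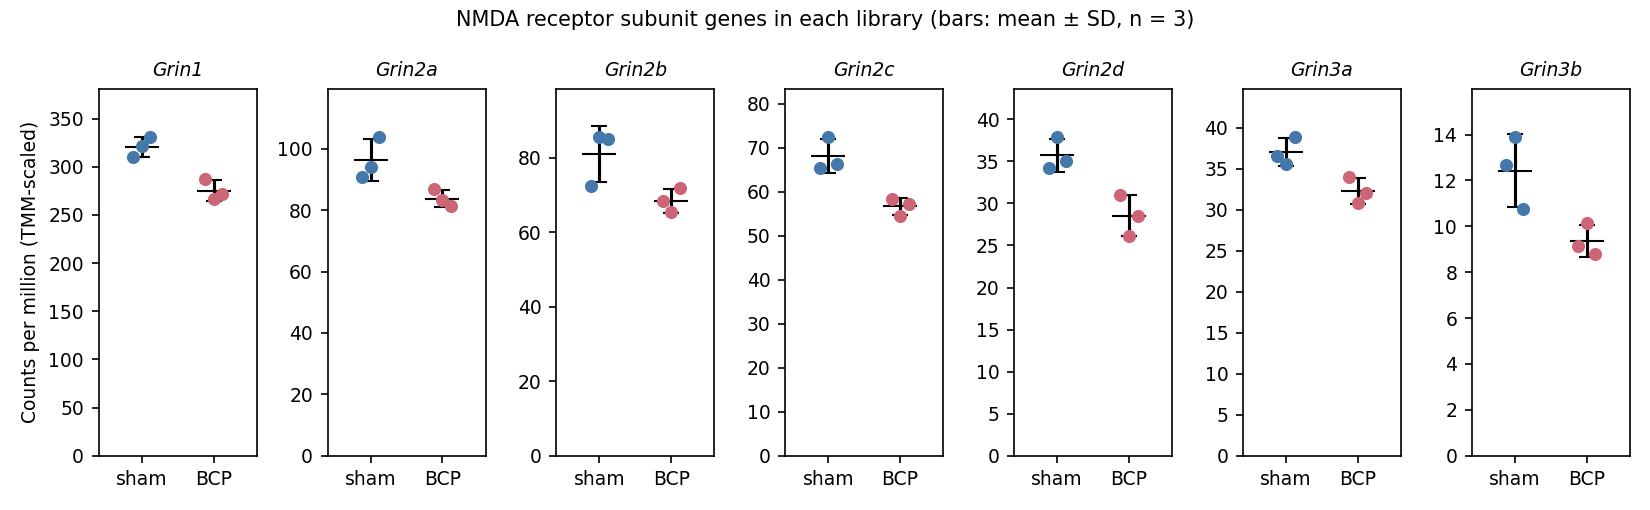
TMM-scaled CPM of each NMDA receptor subunit gene in each library, with the y axis of each panel starting at 0 and bars for mean ± SD (n = 3 libraries per group). The BCP points lie below the sham points in all 7 panels, most narrowly in Grin2b, where BCP library 3 (71.8 CPM) lies beside sham library 1 (72.3 CPM).

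The proportions of the subunits were compared next, since a ratio of subunits within a library does not depend on the scaling between libraries. Of the summed FPKM of the 4 GluN2 genes, Grin2a made up 39.3% ± 1.79 in sham-operated rats and 40.3% ± 1.18 in BCP rats, and Grin2b made up 26.7% ± 1.05 and 26.7% ± 1.06. Grin2c had shares of 25.3% ± 1.37 and 24.85% ± 0.146, and Grin2d had 8.69% ± 0.412 and 8.17% ± 0.444. The difference between the group means was smaller than the SD among sham libraries for Grin2a, Grin2b and Grin2c and larger for Grin2d. The log2 ratio of each subunit to Grin1 was tested with a two-sided exact permutation test over the 6 libraries, whose smallest possible p is 0.1, so that no ratio could pass 0.05. The difference of BCP from sham in that ratio was 0.022 for Grin2a, −0.019 for Grin2b, −0.042 for Grin2c and 0.023 for Grin3a, with exact p from 0.6 to 0.9. It was −0.10 for Grin2d and −0.18 for Grin3b, each with exact p = 0.2 and 0.6 after adjustment over the 6 ratios. The ratio of Grin3b to Grin1 had an SD of 0.22 among sham libraries and 0.144 among BCP libraries. With 3 libraries a group, this test could not have called a shift of any size at 0.05.

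Neuronal markers were then set beside the subunits. All 14 listed neuronal genes were tested, and the cord's excitatory transporter gene Slc17a6 had 2843 to 3333 counts per library against 7 to 18 for Slc17a7, its counterpart in the cortex. Of the 14 neuronal markers 11 fell and none rose (none at an unadjusted p under 0.05 in edgeR and none in DESeq2 either), with a median log2 fold change of −0.19 beside −0.24 for the 7 subunits and −0.014 for all tested genes. The 11 are 78.6% of the list, beside 12.1% of all tested genes called lower and 15.8% called higher. The markers summed to between 14160 and 14530 CPM in sham libraries and between 11910 and 13210 CPM in BCP libraries, without overlap. The neurofilament genes Nefl, Nefm and Nefh weighed most in this sum, with 3626 ± 137, 2193 ± 49.85 and 2065 ± 50.1 CPM in sham libraries. CPM is a share of each library, so in bulk tissue the number of neurons, the RNA per neuron and the RNA of other cells cannot be told apart.

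With the summed counts of the 14 neuronal markers as library sizes, the median of all tested genes moved to 0.18, and changes on this scale are read against that shift. On this scale 0 of the 7 subunits were called in edgeR, the one tool run on it, and 0 had an unadjusted p under 0.05. Grin1 had a log2 fold change of −0.026 (SE 0.054, adjusted p = 0.754) and Grin2a of −0.0065 (SE 0.071). Grin2b had −0.046 (SE 0.081), Grin2c −0.068 (SE 0.077) and Grin3a −0.0039 (SE 0.092). Grin2d, at −0.13 (SE 0.095, adjusted p = 0.32), and Grin3b, at −0.21 (SE 0.148, adjusted p = 0.294), lay farthest from 0. All 7 values were negative, and so below the median of all tested genes on this scale, 0.18. Each lay within 1.5 of its standard errors of 0, and the distance from that median was not tested.

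**Figure D3:**
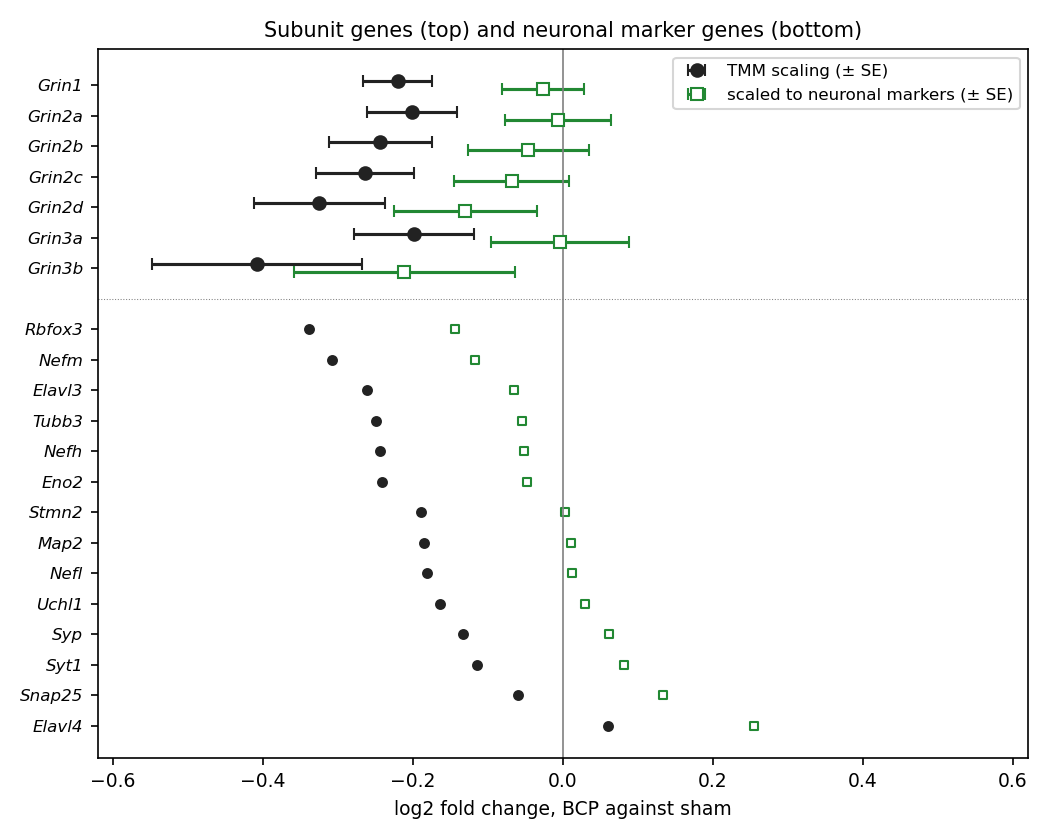
Log2 fold change of BCP against sham for the 7 subunit genes (top, with SE) and the 14 neuronal marker genes (bottom, without error bars), with TMM scaling (filled circles) and with libraries scaled to the summed neuronal markers (open squares). With TMM scaling the subunits lie between −0.41 and −0.20, and with scaling to the markers between −0.21 and −0.0039.

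Other cell types moved with the groups as well, and their part in the values of the subunits was not tested. The counts below stand beside 15.8% of all tested genes called higher and 12.1% called lower. Of 14 microglial markers 10 rose, and their sum went from between 291 and 385 CPM to between 1008 and 1228 CPM. All 8 tested T cell markers rose, and the sum of the list went from between 6.08 and 6.78 CPM to between 52.3 and 58.7 CPM. Cd4 made up most of the sum in sham libraries, with 5.09 ± 0.624 CPM there and 21.9 ± 3.21 CPM in BCP libraries. All 10 oligodendrocyte markers fell (median log2 fold change −0.39), as did 5 of 10 astrocyte markers, while the astrocyte gene Gfap rose by 0.80 on the log2 scale. Of 9 tested inhibitory neuron markers 3 fell and 1 rose, with 1 or 2 lower when any 1 library was left out and 1 without BCP library 1 or BCP library 2. Of 8 excitatory neuron markers 1 fell (0 without sham library 3), and the summed excitatory markers, 313 to 332 CPM in sham libraries and 309 to 335 CPM in BCP libraries, overlapped between groups. Of 4 motor neuron markers 2 fell, and of 6 markers of oligodendrocyte precursors 2 fell, and each count was 1 without sham library 1, sham library 2 or BCP library 2, as it was without BCP library 3 for motor neurons and without BCP library 1 for the precursors. Of the 7 tested markers of dorsal root ganglion and nerve root 1 fell, as did 1 of 4 markers of skeletal muscle, which count Myh1 again under the symbol Myh2. Of 5 endothelial markers none were called (none at an unadjusted p under 0.05, and 1 in DESeq2). The count for dorsal root ganglion and nerve root was 0 without sham library 2, BCP library 2 or BCP library 3 and 2 without BCP library 1. These markers summed to between 90.4 and 101.5 CPM in sham libraries and between 67.2 and 83.9 CPM in BCP libraries, without overlap.

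Of 15 tested genes that form, transport or break down the co-agonists glycine and D-serine 3 rose and 4 fell. These are 20% and 26.7%, beside 15.8% and 12.1% of all tested genes, and the median log2 fold change of the list was −0.04. The counts do not separate supply from removal. Slc7a10, which encodes the transporter Asc-1 for small neutral amino acids including D-serine, fell from 96.2 ± 1.08 to 64.5 ± 6.22 CPM (log2 fold change −0.58, adjusted p = 9.77e-07) and was also lower on the scale of the neuronal markers (−0.39, adjusted p = 0.000132). Slc6a9, the glial glycine transporter GlyT1, fell by 0.31 on the log2 scale (adjusted p = 2.29e-05). It was not called on the scale of the neuronal markers (adjusted p = 0.122). The genes that rose included Shmt1, a glycine-forming enzyme with low values of 1.14 ± 0.233 and 3.63 ± 0.200 CPM (log2 fold change 1.67, adjusted p = 9.97e-05), and Slc1a5, the transporter ASCT2 (0.96, adjusted p = 0.000183). Srr, which encodes the enzyme that makes D-serine, had 17.2 ± 2.49 and 17.0 ± 0.898 CPM and was not called.

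Of 10 tested genes of glutamate supply and clearance 1 rose and 3 fell, which is 10% and 30% beside 15.8% and 12.1% of all tested genes. The number lower was 1 without sham library 3, BCP library 2 or BCP library 3, and the number higher was 2 without sham library 1. Slc1a2, the main astrocytic glutamate transporter GLT-1, fell from 649 ± 6.60 to 503 ± 22.5 CPM (log2 fold change −0.37, adjusted p = 1.65e-06), and it was lower on the scale of the neuronal markers too (−0.17, adjusted p = 0.00783). Slc7a11, the exchanger that releases glutamate for cystine, rose from 112 ± 6.36 to 157 ± 6.09 CPM (0.49, adjusted p = 7.02e-07). The smaller change of Slc38a2, a glutamine transporter (log2 fold change −0.12, adjusted p = 0.0381), was called in 1 of the 6 fits that left out a library, with adjusted p up to 0.151 without BCP library 1. Of 6 tested genes of the kynurenine pathway, whose products include the agonist quinolinate and the antagonist kynurenate, none were called in edgeR, 2 had an unadjusted p under 0.05 and higher values in BCP libraries, and 1 was called in DESeq2. That gene was Kmo, with 23, 13 and 10 sham counts and 28, 188 and 64 BCP counts (log2 fold change 2.66, SE 0.91, adjusted p = 0.112 in edgeR and 0.008115 in DESeq2), and edgeR called it without BCP library 1 (0.0317) or BCP library 2 (0.0049).

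Genes of the postsynaptic scaffold that anchors the receptor were lower or not called. Of 19 tested 7 fell, which is 36.8% beside 12.1% of all tested genes, and the median log2 fold change was −0.16. None rose (none at an unadjusted p under 0.05, none in DESeq2), beside 15.8% of all tested genes called higher. Dlg4, which encodes PSD-95 and binds the tails of GluN2 subunits, fell from 380.5 ± 8.58 to 308 ± 12.9 CPM (−0.30, adjusted p = 2.88e-05). Nsmf, the messenger Jacob from synapse to nucleus, fell by 0.39 (adjusted p = 4.57e-05), Dlgap3 by 0.40 (adjusted p = 0.000107) and Shank3 by 0.29 (adjusted p = 0.000698) on the log2 scale. None of the 4 was called on the scale of the neuronal markers, where the adjusted p ranged from 0.0529 for Nsmf to 0.362 for Shank3.

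Of 29 tested kinases and phosphatases that act on the receptor 6 rose and 7 fell, which is 20.7% and 24.1% beside 15.8% and 12.1% of all tested genes, and their median log2 fold change was −0.03. Without sham library 3 the number lower was 4. The largest rises were in Lyn and Prkcd, which are also known from immune cells. Lyn, a Src family kinase, rose from 21.0 ± 1.96 to 103.7 ± 15.0 CPM (log2 fold change 2.31, adjusted p = 8.09e-08) and Prkcd from 26.4 ± 3.29 to 64.2 ± 5.24 CPM (1.28, adjusted p = 3.05e-09). Ptk2b, which encodes the calcium-dependent kinase Pyk2, rose by 0.73 (adjusted p = 6.75e-08) and Csk, the inhibitor of Src kinases, by 0.34 (adjusted p = 8.27e-05). The cell type in which these 4 genes were higher was not tested. Lyn and Prkcd were the 2 genes of the list past the 2-fold threshold.

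Of 14 genes of transport and turnover of the receptor 4 fell and none rose (none at an unadjusted p under 0.05, none in DESeq2). The 4 are 28.6% of the list, beside 12.1% of all tested genes called lower and 15.8% called higher. Fbxo2, a ubiquitin ligase subunit that recognizes GluN1, fell by 0.28 (adjusted p = 0.000591). The kinesin gene Kif1b fell by 0.19 (adjusted p = 0.000702) and Pacsin1, which acts in endocytosis, by 0.22 (adjusted p = 0.00245). On the scale of the neuronal markers none of Fbxo2 (adjusted p = 0.313), Kif1b (0.9825) and Pacsin1 (0.821) was called. Kif17, the motor for vesicles with GluN2B, had a log2 fold change of −0.32 (adjusted p = 0.0381), was not called in DESeq2 (adjusted p = 0.126) and lost its call without sham library 2 (0.113), sham library 3 (0.102), BCP library 1 (0.094) or BCP library 2 (0.163).

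Of 17 surface partners and modulators 5 fell and none rose (none at an unadjusted p under 0.05, none in DESeq2), and 3 were lower without sham library 2 or BCP library 3. The 5 are 29.4% of the list, beside 12.1% of all tested genes called lower and 15.8% called higher. Reln, the secreted protein reelin, fell from 216 ± 7.23 to 155 ± 8.92 CPM (−0.47, adjusted p = 4.9e-07) and was lower on the scale of the neuronal markers (−0.28, adjusted p = 0.000462). Erbb4, the neuregulin receptor, fell by 0.36 (adjusted p = 4.25e-05) and Ntrk2, the BDNF receptor, by 0.22 (adjusted p = 0.000708). Neither Erbb4 (adjusted p = 0.0707) nor Ntrk2 (0.777) was called on the scale of the neuronal markers.

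Of 16 tested targets of calcium signaling 2 rose and 5 fell in edgeR, and 0 rose and 2 fell in DESeq2. The edgeR counts are 12.5% and 31.2%, beside 15.8% and 12.1% of all tested genes. With 1 library left out 0 or 1 rose, with 1 without sham library 3 or BCP library 1, and 1 to 5 fell, with 1 without sham library 3, 2 without BCP library 3 and 3 without sham library 2 or BCP library 2. Crtc1, a coactivator of CREB, fell by 0.37 on the log2 scale (adjusted p = 0.0019) and remained called whichever library was left out. It was not called on the scale of the neuronal markers (−0.17, adjusted p = 0.186). Rasgrf1, Tiam1 and Kalrn, which encode exchange factors for small GTPases, had log2 fold changes of −0.14, −0.23 and −0.19. These were called in 4, 3 and 3 of the 6 fits that left out a library, with adjusted p of up to 0.0829 without sham library 3, 0.109 without BCP library 3 and 0.167 without BCP library 2.

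Subunits of other receptor channels for glutamate and GABA were examined in the same way. Of 9 AMPA and kainate receptor subunit genes 6 fell and none rose (none at an unadjusted p under 0.05, none in DESeq2), with a median of −0.16, and the number lower was 3 without sham library 3 and 2 without BCP library 2. The 6 are 66.7% of the list, beside 12.1% of all tested genes called lower and 15.8% called higher. Grik4, a kainate receptor subunit, fell from 81.2 ± 1.40 to 59.98 ± 3.03 CPM (−0.44, adjusted p = 1.36e-05) and stayed lower on the scale of the neuronal markers (−0.24, adjusted p = 0.00996). Gria1 fell by 0.25 (adjusted p = 0.00653). The calls of Grik5 (−0.25) and Gria3 (−0.16) were lost in 2 and 3 of the 6 fits that left out a library. Their adjusted p reached 0.0789 without BCP library 2 for Grik5 and 0.0651 without sham library 3 for Gria3. Gria1 (adjusted p = 0.668), Grik5 (0.631) and Gria3 (0.657) were not called on the scale of the neuronal markers. Of 13 tested GABA-A receptor subunit genes 4 fell and none rose (none at an unadjusted p under 0.05, none in DESeq2), with a median of −0.175, and the number lower was 2 without sham library 3 and 1 without BCP library 2. The 4 are 30.8% of the tested genes of this list, beside the same 12.1% and 15.8% of all tested genes. Gabra3, Gabra5 and Gabrg1 had log2 fold changes of −0.25 each, with adjusted p from 0.00963 to 0.0105, and Gabra2 of −0.175 (adjusted p = 0.029). Their calls were lost without sham library 3 for Gabra3 (adjusted p = 0.0654) and Gabrg1 (0.0595). Without BCP library 2 they were lost for Gabra5 (0.074), Gabrg1 (0.0647) and Gabra2 (0.146). Gabra2 also lost its call without sham library 1 (0.155) or BCP library 1 (0.0578). None of these genes was called on the scale of the neuronal markers, with adjusted p from 0.641 for Gabra5 to 0.859 for Gabra2.

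**Figure D4:**
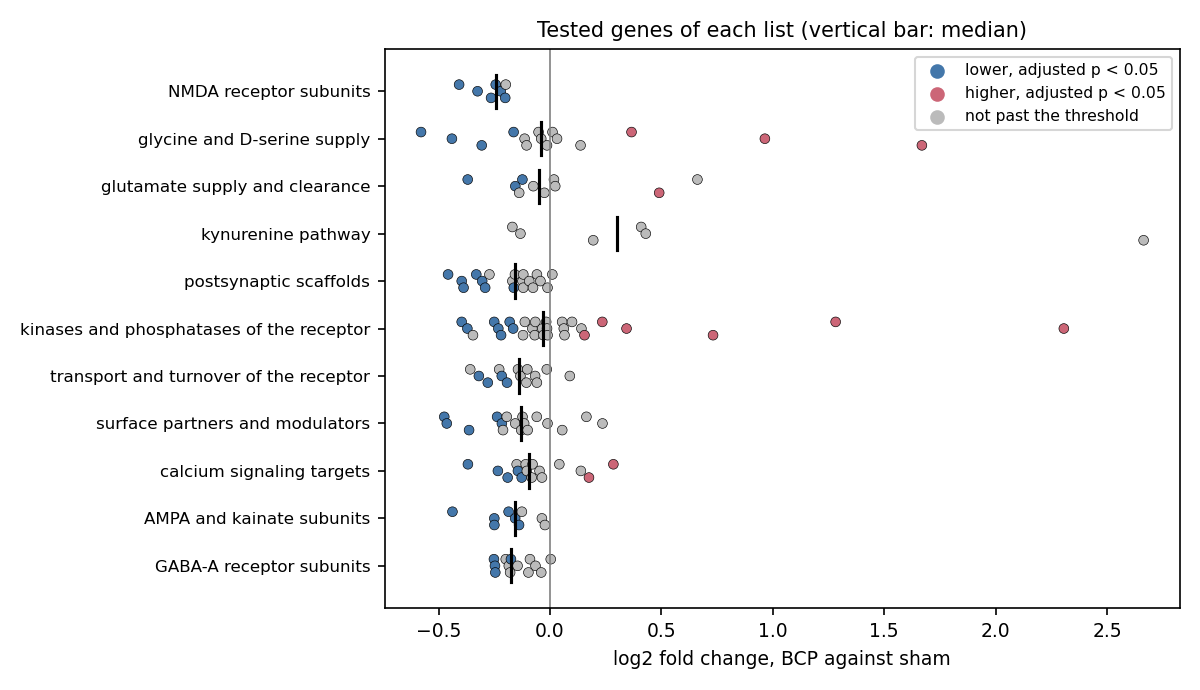
Log2 fold change of BCP against sham (TMM scaling) for each tested gene of the NMDA receptor subunits and of 10 lists of related genes, colored by the edgeR call at adjusted p under 0.05, with a vertical bar at each list's median. The subunits lie left of 0 with a median of −0.24, and the farthest points to the right are Kmo (2.66, not called) and Lyn (2.31).

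The genes whose log2 CPM over the 6 libraries was most like that of each subunit were named as a description. Tested genes with names starting with LOC, RGD, AABR or AC and a digit were left out of this search. The libraries behind each r fall into the same 2 groups. For Grin1 they were Lgi2 (r = 0.999), Prrt2 (0.998) and Ppp2r2c (0.997). For Grin2a they were Serpini1 (0.996), Hspb6 and Phkb, for Grin2b Celsr3 (0.996), Cmc2 and Acvr1b, and for Grin2c Ptprs (0.998), Rnft2 and Aplp2. For Grin2d they were Pkd1 (0.997), Tmem179 and Mtr, for Grin3a Suclg1 (0.996), Gabrg1 and Ntm, and for Grin3b Cds1 (0.997), Alg2 and 7SK. Among the subunits themselves r ranged from 0.53 between Grin3a and Grin3b to 0.978 between Grin2c and Grin2d.

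The lncRNA table listed 19 transcripts that overlapped a subunit gene or lay within 10 kb of one, and 14 of them passed the filter. Of the 19, 6 were near Grin1, 5 near Grin3b, 3 near Grin2b, 3 near Grin2c and 1 each near Grin2d and Grin3a, and none was listed near Grin2a. Of the 14 tested, 1 was called, beside 1.57% of all 12157 tested lncRNAs called higher and 0.395% called lower. That transcript, NONRATT026544.2 (chromosome 7, 12763477 to 12764429), lies 564 bases from Grin3b within the span of Palm. Its counts were 37, 29 and 38 in sham rats and 78, 133 and 128 in BCP rats, so every BCP library lay above every sham library. Its log2 fold change was 1.83 (SE 0.22, adjusted p = 0.00737), the opposite direction to Grin3b and Palm. It was not called with the replicate number as a block (adjusted p = 0.0598). The paper reports this transcript as higher in BCP rats by RT-qPCR on a separate batch of samples.

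Of the 7 lncRNAs that lie inside a subunit gene 5 were tested, and their log2 fold changes ranged from −0.72 to −0.22 with none called. NONRATT019027.2 (chromosome 3, 2508776 to 2509428) inside Grin1 had 46, 45 and 56 sham counts and 24, 18 and 38 BCP counts (log2 fold change −0.72, SE 0.30, edgeR adjusted p = 0.355). NONRATT025594.2 (chromosome 7, 12766773 to 12767550), inside both Grin3b and Palm, had 13, 13 and 9 counts against 1, 4 and 1 and did not pass the filter, so it has no test. Reads of such unspliced transcripts may be shared with the gene around them. NONRATT026546.2, beside Grin3b, had 17, 507 and 67 sham counts and 76, 58 and 12 BCP counts, a spread in which 1 sham library stood far above the others.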

How the data were processed

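Per the labels and the study's methods, the authors mapped reads to Rnor_6.0 with HISAT2 2.0.4 and calculated FPKM with StringTie 1.3.0. The deposited tables hold the authors' unnormalized counts and their FPKM for each gene and lncRNA, and how reads were counted, by which program and with which strand setting, is not given in the sources used here. Gene counts totaled 11779485 to 15004290 per library, and TMM factors ranged from 0.982 to 1.02. Groups came from the labels. Counts were fitted with edgeR 4.0.16 (R 4.3.3), with its filter by expression, TMM, a robust quasi-likelihood test on condition and Benjamini-Hochberg adjustment over 14908 genes and, separately, 12157 lncRNAs. The biological coefficient of variation was 7.72% for genes and 33.4% for lncRNAs. SE was the log2 fold change divided by the square root of the F statistic. DESeq2 1.42.0, other scalings, other filters, a replicate block and each library left out were alternatives. The scripts were tested on simulated data, in which changes as small as those of the subunits were mostly not recovered, and changes of lncRNAs were recovered less often than those of genes. The members and lists were chosen with earlier results of these data known. The text names the subunits, the lncRNAs within 10 kb, and up to 4 genes per list with the smallest p-values among those called. It also names any list member past 2-fold and the 3 genes most correlated with each subunit, with the name filter given above. Srr, Slc17a6, Slc17a7, Gfap, Cd4, Nefl, Nefm, Nefh, Myh1, Palm, Tmem259, Lrrc26 and Ppp3r2 were named after their values were seen. A few results under this rule are left out of the text. Figures were drawn with matplotlib 3.10.9.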

Additional observations from a re-analysis of the deposited data

How the results depend on the processing

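With 3 libraries a group, small changes are near the limit of the test, and intervals and tests cover these 6 libraries only. The number of subunits called lower, 6 with TMM, was 0 with libraries scaled to the neuronal markers, 5 in DESeq2, 4 with library size alone, 7 with upper-quartile normalization and 3 to 5 when 1 library was left out, with 3 without BCP library 2. No subunit was called higher or past 2-fold under any of these. Genes called lower in the 8 lists of the receptor's pathway, 35 with TMM, numbered 23 with library size alone, 3 with neuronal markers and 21 to 34 with 1 library left out, with 21 without sham library 3 and 23 without BCP library 3. Genes called higher there, 12 with TMM, numbered 31 with neuronal markers and 8 to 14 with 1 library left out. Over all tested genes, neuronal markers gave 180 lower and 4809 higher, and leaving out 1 library gave 1226 to 1747 lower and 1962 to 2389 higher. The neuronal scaling moves all genes by its construction. It also turned the log2 fold changes of Slc38a2 (0.073), Kif1b (0.0015), Rasgrf1 (0.050), Kalrn (0.0069), Gria3 (0.039) and Gabra2 (0.021) to positive values. The difference in log2 ratio to Grin1 changed sign with 1 library left out for Grin2b (−0.074 to 0.022), Grin2c (−0.085 to 0.0026) and Grin3a (−0.0059 to 0.040), and the cause was not tested. Replicate numbers are shared between groups, but the deviations of same-numbered libraries correlated at −0.105, 0.0439 and −0.0353, so the numbers were not taken to pair libraries. With the replicate number as a block 6 subunits were called lower, and 0 lncRNAs near them were called higher.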
